A study of Mus musculus with 20 samples.

Results

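Dgka, Itm2a, Ephx1, Capg and Pdlim1 were 5 genes whose signal was lower in CD8 T cells stimulated for 48 h with antigen, costimulation and IL-12 than in cells given antigen and costimulation alone. They were chosen by that difference in signal between IL-12 and Ag-B7 arrays at 48 h, so their values at 48 h describe the choice and carry no test. On the array they had 8 of 12422 probe sets that were not controls, and they were 5 of 8251 genes named by a single symbol. Dgka, Itm2a and Ephx1 had 1 probe set each, Capg had 3 and Pdlim1 had 2, and each of the 8 was read on all 20 arrays. The cells were OT-1 TCR transgenic CD8 T lymphocytes from C57Bl6 mice aged 6 to 8 weeks, whose receptor binds a peptide of ovalbumin presented by H-2Kb, a class I molecule. Naive cells low in CD44 were enriched from lymph nodes by removing other cells and stimulated on latex microspheres coated with the peptide complex and B7-1 (written Ag-B7). The factor added or left out was murine recombinant IL-12, universal type I interferon (written IFNa/b) or the histone deacetylase inhibitor trichostatin A (written TSA), and human recombinant IL-2 was present in every culture, the Ag-B7 controls included. RNA was measured on Affymetrix arrays after 24 h with IL-12, IFNa/b or Ag-B7 alone (1 array each), after 48 h with IL-12 (3 arrays), IFNa/b (3 arrays) or Ag-B7 alone (4 arrays), after 72 h with IL-12, IFNa/b, TSA or Ag-B7 alone (1 array each), and in naive cells at 0 h (3 arrays). The labels call the replicates biological but do not say whether they came from separate mice, so the tests measure the spread between these samples.

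Naive CD8 T cells need antigen, costimulation and a further, inflammatory signal such as IL-12 or type I interferon to gain full effector function and memory, and the design asks how gene expression differs with and without that signal. IL-12 acts through a receptor paired with the kinases JAK2 and TYK2 and the transcription factor STAT4. Type I interferon acts through a receptor of its own and can also activate STAT4 in T cells. The 5 genes have unrelated products. Dgka encodes diacylglycerol kinase alpha, which turns diacylglycerol into phosphatidic acid and so damps the Ras and protein kinase C signals of the T cell receptor. Itm2a encodes a transmembrane protein of the BRICHOS domain family that is induced in thymocytes by receptor signals. Ephx1 encodes the microsomal epoxide hydrolase, a detoxifying enzyme. Capg encodes a gelsolin family protein that caps the growing ends of actin filaments without cutting them and is abundant in macrophages. Pdlim1 encodes an adaptor with a PDZ and a LIM domain that binds alpha-actinin on actin fibres.

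The upstream sequences of the 5 genes are shown because the genes were lower together with IL-12, and they allow their start regions to be compared letter by letter. All 5 genes matched a RefSeq promoter table of the mouse build GRCm38.p6, with 8 annotated starts in all, since Dgka has 4. Capg spans chr6:72538282-72562983 on the plus strand, and its only matched start lies inside that span. The bases before the outer end of Capg were thus not searched. The 250 bases before the start are given 5′ to 3′ on the gene's strand, with matches to the searched motifs in capitals. For Dgka, the outermost and the innermost start are shown. They lie at chr10:128745085-128745334 and chr10:128737613-128737862 (minus strand), Itm2a at chrX:107403361-107403610 (minus strand), Ephx1 at chr1:181017570-181017819 (minus strand), Capg at chr6:72549397-72549646 (plus strand) and Pdlim1 at chr19:40271617-40271866 (minus strand).
Dgka outermost: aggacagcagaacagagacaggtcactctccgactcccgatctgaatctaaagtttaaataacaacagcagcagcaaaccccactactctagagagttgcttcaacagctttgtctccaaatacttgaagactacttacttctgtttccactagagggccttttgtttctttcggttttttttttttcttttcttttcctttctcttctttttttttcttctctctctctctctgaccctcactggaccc
Dgka innermost: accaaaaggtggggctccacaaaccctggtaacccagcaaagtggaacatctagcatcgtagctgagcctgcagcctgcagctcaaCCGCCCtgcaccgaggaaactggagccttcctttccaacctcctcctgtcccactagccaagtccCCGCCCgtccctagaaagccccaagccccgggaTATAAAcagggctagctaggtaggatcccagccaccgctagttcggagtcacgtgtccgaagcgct
Itm2a: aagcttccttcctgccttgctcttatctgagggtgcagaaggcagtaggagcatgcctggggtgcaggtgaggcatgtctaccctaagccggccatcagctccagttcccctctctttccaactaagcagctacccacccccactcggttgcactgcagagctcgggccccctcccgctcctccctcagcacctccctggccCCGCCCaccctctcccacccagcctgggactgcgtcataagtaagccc
Ephx1: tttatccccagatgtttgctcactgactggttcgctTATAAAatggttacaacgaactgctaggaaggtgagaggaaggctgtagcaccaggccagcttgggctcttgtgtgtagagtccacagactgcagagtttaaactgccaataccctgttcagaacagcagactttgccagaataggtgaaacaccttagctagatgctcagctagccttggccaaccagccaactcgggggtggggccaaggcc
Capg: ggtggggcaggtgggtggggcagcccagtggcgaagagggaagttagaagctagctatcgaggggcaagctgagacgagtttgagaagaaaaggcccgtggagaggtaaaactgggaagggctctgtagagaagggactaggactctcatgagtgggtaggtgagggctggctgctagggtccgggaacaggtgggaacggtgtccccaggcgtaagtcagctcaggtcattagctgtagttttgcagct
Pdlim1: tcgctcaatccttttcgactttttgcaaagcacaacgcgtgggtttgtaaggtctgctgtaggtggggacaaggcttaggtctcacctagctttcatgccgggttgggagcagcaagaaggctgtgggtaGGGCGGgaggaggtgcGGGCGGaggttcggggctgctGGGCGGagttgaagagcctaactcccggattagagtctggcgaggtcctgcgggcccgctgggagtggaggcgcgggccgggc

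Motifs were searched on both strands, and matches are descriptions of letters, not binding sites. The gamma-activated site TTCNNNGAA, bound by STAT proteins, the forkhead motif TGTTTAC, the T-box motif GGTGTGA, the Runx motif TGTGGT and the AP-1 motif TGANTCA had no match in any of the 8 windows. Among 32851 mouse windows of the same length, 7.02% held the gamma-activated site, 3.17% the forkhead motif, 3.33% the T-box motif, 14.0% the Runx motif and 6.75% the AP-1 motif. The GC box GGGCGG and the TATA box TATAAA were added to the search after the sequences had been seen, and 32.7% and 12.4% of all windows held them. The GC box occurred in 3 of the 4 Dgka windows, 1 time before Itm2a and 3 times before Pdlim1. The Dgka windows not shown overlap each other and hold 2 GC boxes in common. TATAAA occurred before the innermost start of Dgka and before Ephx1. The Capg window, which lies inside the annotated gene, held none of the 7 motifs. The GC content of the windows ran from 41.2% (outermost start of Dgka) to 72.4% (a Dgka window not shown), against a median of 52.4% over all windows.

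Values below are MAS5 signals, a linear intensity with nearly the same trimmed mean on every deposited array, so they are relative to an array's total labelled RNA. Differences are on the scale of log2(signal + 46.4), and folds and percentages of the naive signal are ratios of signal + 46.4. This scale understates the change of dim probe sets. Errors after ± are limma standard errors unless named SD. Replicates correlated at Pearson's r of 0.947 to 0.965 within each 48 h group, but at 0.830 to 0.932 among the naive arrays. Naive replicates 2 and 3 had actin 3′ to 5′ signal ratios of 2.06 and 1.61, against 1.00 to 1.15 on the other 18 arrays. All 11 CD8 T cell identity markers on the array, of 13 listed, were above the array's 40th percentile on some arrays. The RNA came from whole cultures, so fewer cells of a kind and less RNA per cell cannot be told apart.

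At 48 h, the brightest probe set of every one of the 5 genes was lower on all 3 IL-12 arrays than on any of the 4 arrays of Ag-B7 alone, by 2.06-fold to 4.32-fold. Over all 8569 probe sets that passed the filter on low signal, 3.34% were lower without overlap in this comparison, and 0.257% were called lower and 0.408% higher at an adjusted p below 0.05 (limma with Benjamini-Hochberg adjustment). Since the genes were picked here, nothing is read from their own count. By size of the difference they ranked from 2 (Ephx1) to 74 (Pdlim1) among the 8569, counted from the most lowered.

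Dgka (103596_at) had signals of 2176, 1901 and 1953 on the IL-12 arrays, against 5105, 4569, 4497 and 3620 with Ag-B7 alone. The difference was -1.12 ± 0.21 on the log2 scale, a 2.17-fold lower signal. Itm2a (93511_at) gave 1463, 2022 and 1689 with IL-12, against 4312, 3676, 4842 and 4371 with Ag-B7 alone. The IL-12 arrays thus stood well below the lowest Ag-B7 array for both genes. For Itm2a the difference was -1.30 ± 0.25 (2.46-fold).

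Ephx1 (101587_at) had the widest gap, with 317, 470 and 151 on the IL-12 arrays, against 1449, 1665, 1098 and 1422 with Ag-B7 alone. Its difference was -2.11 ± 0.43 (4.32-fold). Its probe set's signal was near background on part of the arrays, lying above the array's 40th percentile on 15 of 20 arrays, and its IL-12 replicates varied most, with an SD of 0.70 on the log2 scale. Capg (160106_at) had 1606, 2137 and 2038 with IL-12, against 3972, 3769, 4204 and 4175 with Ag-B7 alone, a difference of -1.06 ± 0.18 (2.08-fold). Pdlim1 (100554_at) had 1537, 1961 and 1540 with IL-12, against 3531, 3524, 3469 and 3439 with Ag-B7 alone, a difference of -1.04 ± 0.20 (2.06-fold). The 4 Ag-B7 arrays were close together for both actin-binding proteins, with an SD of 0.07 for Capg and 0.02 for Pdlim1 on the log2 scale, while the IL-12 arrays spread by 0.22 and 0.20.

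**Figure D1:**
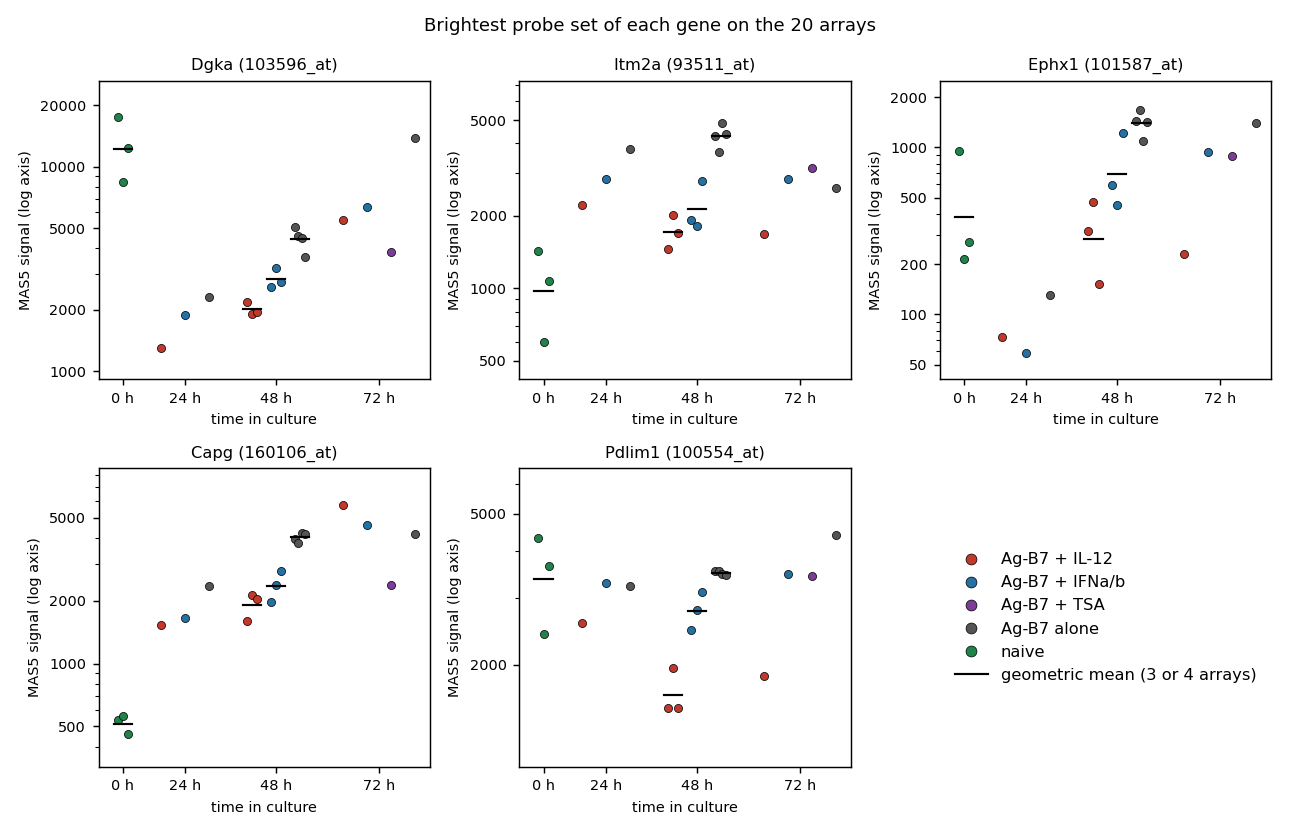
Signal of the brightest probe set of each gene (vertical log axis, MAS5 signal) on every array, by time in culture and, from left to right within a time, Ag-B7 with IL-12, with IFNa/b, with TSA (72 h) and alone. Each point is 1 array and each bar is the geometric mean of 3 or 4 arrays; at 48 h all 3 IL-12 points lie below all 4 Ag-B7 points for every gene, and at 72 h the IL-12 point of Capg (5739) is the highest of its panel.

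The dimmer probe sets of Capg and Pdlim1 did not share this difference. Capg 161969_f_at had 420, 179 and 328 with IL-12, against 105, 608, 710 and 131 with Ag-B7 alone, a difference of 0.003 ± 0.54 on the log2 scale. Capg 162461_at had 53.8, 176 and 260 with IL-12, against 164, 84.4, 247 and 116 with Ag-B7 alone, a difference of -0.01 ± 0.39. Pdlim1 161348_r_at had 385, 471 and 508 with IL-12, against 405, 384, 799 and 279 with Ag-B7 alone, a difference of 0.05 ± 0.40. In all 3 the groups overlapped, and each standard error was larger than that of the gene's brightest probe set. Differences either way within those errors cannot be seen with these sets.

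Across the 17 stimulated arrays, the dim sets followed the brightest set of their own gene weakly, as a description with no test. Pearson's r was 0.30 for Capg 161969_f_at, 0.41 for Capg 162461_at and 0.03 for Pdlim1 161348_r_at. The Capg sets were near background, above the 40th percentile on 13 and 14 of 20 arrays, whereas Pdlim1 161348_r_at was above it on all 20. The suffixes f and r in a probe set's name mark sets whose design rules were relaxed, and f sets may match several members of a family. The lower Capg and Pdlim1 signal with IL-12 therefore rests on 1 probe set of each gene.

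**Figure D2:**
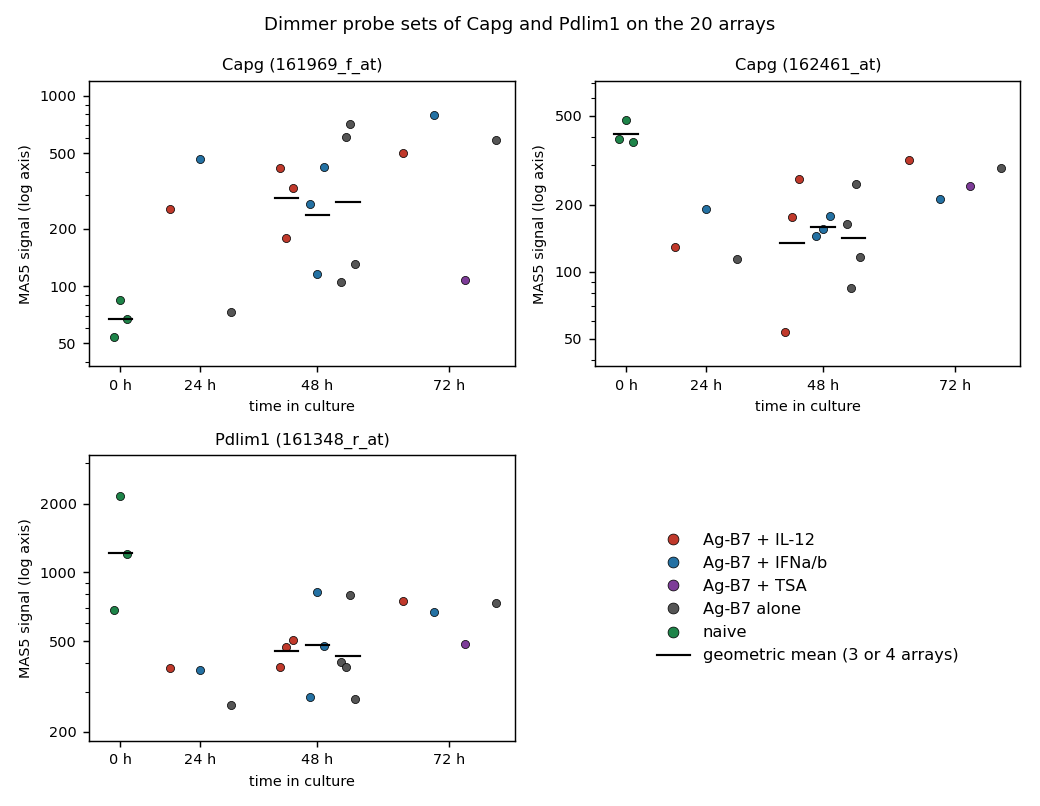
Signal of the 3 dimmer probe sets of Capg and Pdlim1 (vertical log axis, MAS5 signal) on every array, by time and group as named in the legend, with bars for geometric means of 3 or 4 arrays. The IL-12 and Ag-B7 points overlap at 48 h in all 3 panels, and in 162461_at and 161348_r_at the naive mean is above the means of the 48 h groups.

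IFNa/b, the other inflammatory signal, left the brightest probe sets of 4 of the 5 genes lower at 48 h without overlap with the same Ag-B7 arrays, where 3.3% of all probe sets were lower without overlap. Because these Ag-B7 arrays also served to pick the genes, the values are a description. Dgka had 2582, 3210 and 2733 with IFNa/b, a difference from Ag-B7 alone of -0.63 ± 0.21 on the log2 scale. Itm2a had 1915, 1811 and 2790 with IFNa/b, a difference of -0.99 ± 0.25. Capg 160106_at had 1972, 2372 and 2788 with IFNa/b, a difference of -0.76 ± 0.18. Pdlim1 100554_at had 2472, 2783 and 3114, a difference of -0.32 ± 0.20, all 3 arrays lying below the lowest Ag-B7 array at 3439. Ephx1 was the exception: its IFNa/b arrays at 597, 453 and 1222 reached into the Ag-B7 range, with a difference of -0.96 ± 0.43. The dim sets overlapped between IFNa/b and Ag-B7 alone, with 270, 116 and 422 for Capg 161969_f_at with IFNa/b, 145, 156 and 178 for Capg 162461_at and 284, 818 and 475 for Pdlim1 161348_r_at. Their differences were -0.23 ± 0.54, 0.11 ± 0.39 and 0.14 ± 0.40, so the lower Capg and Pdlim1 signal rests on the bright sets here too.

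Set against IFNa/b, IL-12 gave lower values without overlap for Dgka and Pdlim1 at 48 h, and 6.27% of all probe sets were lower without overlap in that comparison. The difference between IL-12 and IFNa/b was -0.49 ± 0.23 for Dgka and -0.72 ± 0.21 for Pdlim1 on the log2 scale. For Ephx1 it was -1.15 ± 0.46, with the highest IL-12 array at 470 just above the lowest IFNa/b array at 453. Itm2a and Capg overlapped more, with differences of -0.31 ± 0.27 and -0.29 ± 0.19. So on the mean of each gene's brightest probe set IL-12 was lowest, IFNa/b next and Ag-B7 alone highest. Only in Dgka and Pdlim1 did all 3 groups separate array by array. The IL-12 and Ag-B7 arrays picked the genes, so IL-12 below Ag-B7 alone was fixed by the choice. The differences from IFNa/b and the order are therefore a description. The dim sets did not follow that order, and IL-12 differed from IFNa/b by 0.24 ± 0.58 for Capg 161969_f_at, -0.12 ± 0.41 for Capg 162461_at and -0.09 ± 0.42 for Pdlim1 161348_r_at.

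The arrays at 24 and 72 h did not enter the 48 h difference that picked the genes, and they were fitted on their own to test the same difference. Earlier results of these data were known when the genes were picked. Each of these arrays is labelled replicate 1, and whether they share cells with replicate 1 at 48 h was not tested. The fit is therefore not known to be independent of the choice. In this fit IL-12 was compared with Ag-B7 alone over 1 array per time, with time as a block, and 8143 probe sets passed the filter. None of the 8 probe sets was called after Benjamini-Hochberg adjustment, where limma called 0% of all probe sets lower and 0.0246% higher. Only 2 residual degrees of freedom were left, and any change of an effect between 24 and 72 h counted as error. At an unadjusted p below 0.05, Dgka, Itm2a, Ephx1 and Pdlim1 100554_at were lower, where 4.38% of all probe sets were.

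Dgka had 1304 with IL-12 and 2296 with Ag-B7 alone at 24 h, and 5496 with IL-12 and 13864 with Ag-B7 alone at 72 h. Its difference over both times was -1.06 ± 0.22 on the log2 scale (limma, unadjusted p = 0.00199, adjusted p = 0.344). The kinase's signal was lower with IL-12 by 1.74-fold at 24 h and by 2.51-fold at 72 h. Itm2a had 2209 with IL-12 and 3804 with Ag-B7 alone at 24 h, and 1689 with IL-12 and 2612 with Ag-B7 alone at 72 h. Its difference was -0.69 ± 0.19 (limma, unadjusted p = 0.00841, adjusted p = 0.462), lower at both times.

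Ephx1 was at 72.9 with IL-12 and 131 with Ag-B7 alone at 24 h, when its signal was near background in every culture. At 72 h it was at 230 with IL-12 and 1407 with Ag-B7 alone, the widest gap of the 5 genes at 5.27-fold. The difference over both times was -1.48 ± 0.48 (limma, unadjusted p = 0.017, adjusted p = 0.496). Pdlim1 100554_at had 2583 with IL-12 and 3226 with Ag-B7 alone at 24 h, and 1862 with IL-12 and 4395 with Ag-B7 alone at 72 h. For this alpha-actinin partner the difference was -0.77 ± 0.23 (limma, unadjusted p = 0.013, adjusted p = 0.479), from 1.24-fold lower at 24 h to 2.33-fold lower at 72 h.

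Capg was the only one of the 5 that turned round. Its bright probe set read 1531 with IL-12 and 2343 with Ag-B7 alone at 24 h, which is 1.51-fold lower. At 72 h it read 5739 with IL-12 and 4174 with Ag-B7 alone, which is 1.37-fold higher. Over both times the difference was -0.07 ± 0.26 (limma, unadjusted p = 0.787, adjusted p = 0.96), or 0.15 under spike-in scaling, so the capping protein's lower signal at 24 and 48 h was not seen at 72 h on the single array there. The dim sets gave 0.56 ± 0.42 and 0.12 ± 0.35 for Capg and 0.25 ± 0.23 for Pdlim1 (limma, adjusted p of 0.705, 0.943 and 0.768).

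**Figure D3:**
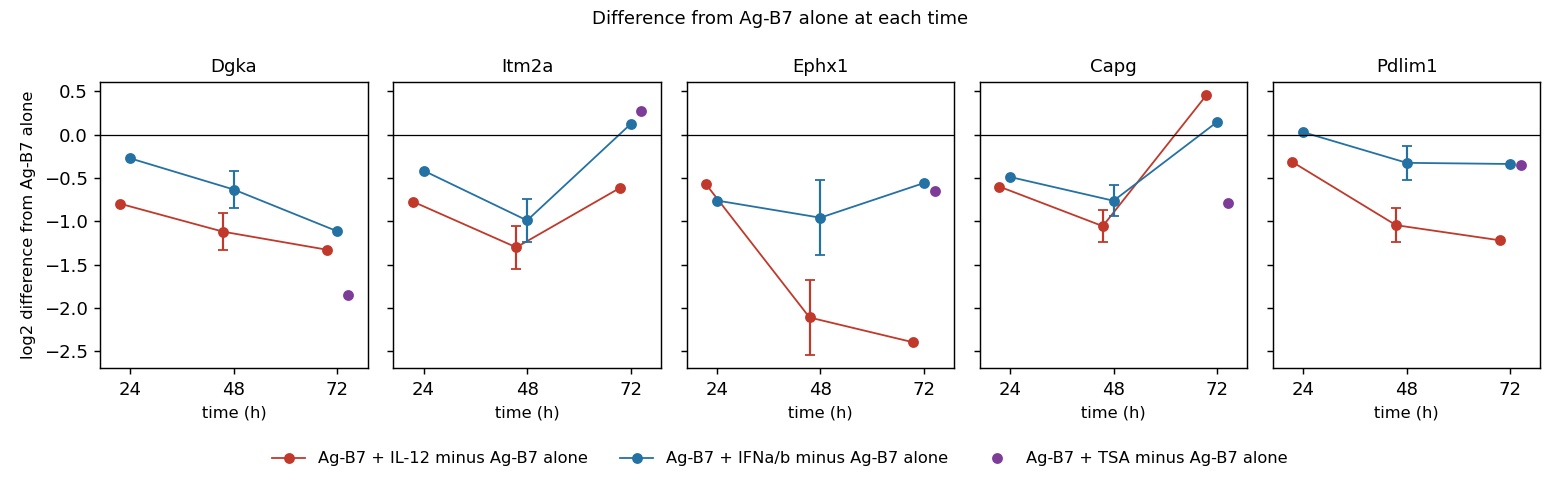
Log2 difference of the brightest probe set from Ag-B7 alone (vertical axis) at 24, 48 and 72 h (horizontal axis) with IL-12, IFNa/b and TSA. Points at 24 and 72 h compare single arrays and have no error, bars at 48 h are limma standard errors, and the points within a time are drawn side by side; the IL-12 line of Capg crosses 0 at 72 h (+0.45) while the other 4 IL-12 lines stay below it.

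Folds here are on the scale defined above, which understates the change of dim probe sets. Among the bright probe sets, Dgka, Itm2a and Capg were at least 1.5-fold lower with IL-12 than with Ag-B7 alone at 24 h. So were 4.79% of all probe sets. Ephx1, near background at 24 h, read 72.9 with IL-12 and 131 with Ag-B7 alone. On that scale it was 1.49-fold lower, just short of the limit, and the signals themselves lay further apart. At 72 h, Dgka, Itm2a, Ephx1 and Pdlim1 were at least 1.5-fold lower, where 13.2% of all probe sets were. On the same scale Dgka and Itm2a reached that size at both times, as did 1.38% of all probe sets. These differences have no replicate check.

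With IFNa/b at 24 and 72 h, no probe set of the 5 genes was called against Ag-B7 alone (limma with Benjamini-Hochberg adjustment over 8143 probe sets, of which 0% were called lower and 0.0491% higher). Dgka was at 1892 with IFNa/b and 2296 with Ag-B7 alone at 24 h, and at 6374 with IFNa/b and 13864 with Ag-B7 alone at 72 h. Its difference was -0.69 ± 0.22 (limma, unadjusted p = 0.0167, adjusted p = 0.863), where 2.41% of all probe sets were lower at an unadjusted p below 0.05. Itm2a, Ephx1, Capg and Pdlim1 had differences of -0.15 ± 0.19, -0.66 ± 0.48, -0.17 ± 0.26 and -0.15 ± 0.23 (limma, adjusted p of 0.921, 0.879, 0.935 and 0.935), those of Itm2a, Capg and Pdlim1 turning to 0.07, 0.04 and 0.06 under spike-in scaling. Capg 161969_f_at was higher with IFNa/b by 1.25 ± 0.42 (limma, unadjusted p = 0.0196, adjusted p = 0.863).

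The direct difference between IL-12 and IFNa/b at 24 and 72 h was not called for any of the 8 probe sets, where 0.16% of all probe sets were called lower and 0.111% higher (limma with Benjamini-Hochberg adjustment). Pdlim1 100554_at had 2583 with IL-12 and 3292 with IFNa/b at 24 h, and 1862 with IL-12 and 3468 with IFNa/b at 72 h, a difference of -0.61 ± 0.23 (limma, unadjusted p = 0.0336, adjusted p = 0.629). Itm2a had 2209 with IL-12 and 2842 with IFNa/b at 24 h, and 1689 with IL-12 and 2847 with IFNa/b at 72 h, a difference of -0.55 ± 0.19 (limma, unadjusted p = 0.0243, adjusted p = 0.58). Both were lower with IL-12 at each time, and 3.79% of all probe sets were lower at an unadjusted p below 0.05. The differences for Dgka, Ephx1 and Capg were -0.37 ± 0.22, -0.83 ± 0.48 and 0.10 ± 0.26 (limma, adjusted p of 0.725, 0.712 and 0.939).

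TSA was measured on 1 array at 72 h, so its values have no test. Dgka read 3821 with TSA, against 13864 with Ag-B7 alone, a 3.60-fold lower signal and lower than with either cytokine at that time. Capg read 2391 with TSA, against 4174 with Ag-B7 alone (1.73-fold lower), which is the opposite side from IL-12 at 5739. Ephx1 read 883 with TSA, against 1407 with Ag-B7 alone (1.56-fold lower). Itm2a at 3162 against 2612 and Pdlim1 at 3429 against 4395 lay within 1.28-fold of Ag-B7 alone. Among the bright probe sets, signals at least 1.5-fold lower with TSA were thus found for Dgka, Ephx1 and Capg, where 20.2% of all probe sets were. The dim set Capg 161969_f_at was lower too, at 108 with TSA and 585 with Ag-B7 alone (4.09-fold).

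The 5 genes took different courses from naive cells, and IL-12 sat below Ag-B7 alone at 48 h whether a gene was below, above or level with naive cells. Differences below are from the naive mean on the log2 scale, and they depend on the scaling of the arrays. The median over all probe sets was -0.32 for Ag-B7 alone, -0.35 for IL-12 and -0.33 for IFNa/b at 48 h as deposited, and 1.45, 1.22 and 1.52 when the arrays were scaled on spiked-in controls. The mean log2 signal of these controls was 13.4, 14.9 and 14.5 on naive replicates 1, 2 and 3, against 12.2 to 13.2 on the 48 h arrays. It was thus highest on naive replicates 2 and 3, the arrays with high actin ratios. The part of those arrays in the spike-in values was not tested, nor was whether the controls follow the RNA per cell. Where another scaling turned the direction of a difference described here at 48 h, that value is given. The single arrays at 24 and 72 h were not rescaled.

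Dgka was high in naive cells, at 17568, 8426 and 12334. With IL-12 its difference from naive cells was -3.18 at 24 h, -2.58 at 48 h and -1.15 at 72 h. With Ag-B7 alone it was -2.39 at 24 h, -1.46 at 48 h and 0.18 at 72 h, the sign at 48 h turning to 0.31 under spike-in scaling. The kinase's signal was thus nearest to naive at 72 h in each arm. With IL-12 it stood at 11.0%, 16.7% and 45.2% of the naive signal at 24, 48 and 72 h, and with Ag-B7 alone at 19.1%, 36.4% and 113%. The 72 h array was 4.11-fold above the 24 h array with IL-12 and 5.94-fold above it with Ag-B7 alone.

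Itm2a and the bright set of Capg were low in naive cells and higher in all stimulated groups. Itm2a had 1422, 598 and 1074 in naive cells. With IL-12 it was higher than naive by 1.14, 0.78 and 0.77 at 24, 48 and 72 h, and with Ag-B7 alone by 1.92, 2.08 and 1.38. Capg 160106_at had 536, 558 and 458 in naive cells, and it was higher by 1.49, 1.80 and 3.36 with IL-12 and by 2.09, 2.86 and 2.91 with Ag-B7 alone. The Capg signal with Ag-B7 alone was nearly level between 48 and 72 h, a 1.04-fold change, while with IL-12 it was 2.95-fold higher at 72 h than at 48 h. The dim sets of Capg disagreed with each other. Capg 161969_f_at was higher than naive by 1.40, 1.57 and 2.26 at 24, 48 and 72 h with IL-12 and by 0.07, 1.57 and 2.46 with Ag-B7 alone. Capg 162461_at had differences from naive of -1.40, -1.29 and -0.35 with IL-12 and of -1.53, -1.28 and -0.46 with Ag-B7 alone, the signs at 48 h turning to 0.28 and 0.49 under spike-in scaling.

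Ephx1 had 949, 215 and 273 in naive cells, replicate 1 standing apart. At 24 h it was below the naive mean in all cultures, at -1.87 with IL-12 and -1.30 with Ag-B7 alone. With Ag-B7 alone it was then higher than naive by 1.72 at 48 h and 1.74 at 72 h, whereas with IL-12 it was at -0.39 and -0.66, the sign at 48 h turning to 0.21 without naive replicate 1 (left out after seeing the data), to 0.22 under quantile normalization, to 0.22 under median centring and to 1.18 under spike-in scaling. Pdlim1 100554_at had 4311, 2403 and 3652 in naive cells and was near that level with Ag-B7 alone as deposited, at -0.06, 0.05 and 0.38, the value at 48 h being -0.10 under quantile normalization, -0.18 without naive replicate 2 and 1.82 under spike-in scaling. With IL-12 its differences from naive cells were -0.37, -0.99 and -0.84, the sign at 48 h turning to 0.58 under spike-in scaling. The dim set Pdlim1 161348_r_at had differences from naive of -1.56, -1.34 and -0.67 with IL-12 and of -2.03, -1.39 and -0.69 with Ag-B7 alone, the signs at 48 h turning to 0.23 and 0.38 under spike-in scaling.

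**Figure D4:**
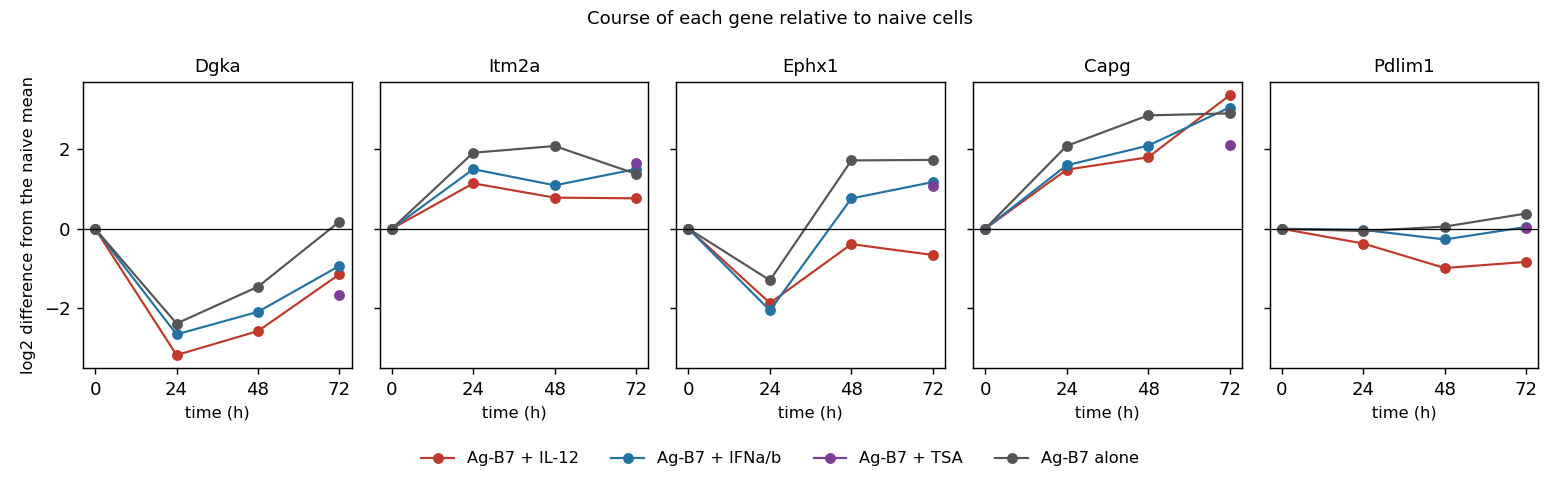
Log2 difference of the brightest probe set of each gene from the naive mean (vertical axis) at 0, 24, 48 and 72 h (horizontal axis) with IL-12, IFNa/b, TSA and Ag-B7 alone. Points at 48 h are means of 3 or 4 arrays and the others single arrays, with no error drawn. Dgka dips, and at 72 h it is back near 0 only with Ag-B7 alone (0.18). It is then at -1.15 with IL-12, -0.93 with IFNa/b and -1.67 with TSA. Itm2a and Capg are above 0 throughout. Ephx1 with IL-12 is below 0 at 48 h (-0.39, or 0.21 without naive replicate 1), and Pdlim1 is near 0 except with IL-12.

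The difference of IFNa/b from naive cells at 48 h takes no value from the arrays that picked the genes, so it was tested. Its spread, and so its errors and p-values, came from the fit of the 13 replicated arrays, those that picked the genes included. The log2 SD of Dgka was 0.53 in naive cells, 0.16 with IFNa/b, 0.10 with IL-12 and 0.21 with Ag-B7 alone. In the same order it was 0.61, 0.33, 0.23 and 0.16 for Itm2a and 0.14, 0.25, 0.22 and 0.07 for Capg 160106_at. Between IFNa/b and naive cells, 34.8% of the 8569 probe sets were called lower and 23.1% higher, or 57.9% in all. Calls for 5 of the 8 probe sets of these genes are thus near the background. Dgka fell, with 2582, 3210 and 2733 in IFNa/b cultures and 17568, 8426 and 12334 in naive cells (-2.09 ± 0.23, 4.27-fold, limma adjusted p = 2.02e-06). Capg 160106_at rose, with 1972, 2372 and 2788 against 536, 558 and 458 (2.09 ± 0.19, 4.27-fold, limma adjusted p = 4.18e-07). Itm2a rose by 1.09 ± 0.27 (2.14-fold, limma adjusted p = 0.00261). The arrays of the 2 groups did not overlap for any of these 3 genes, where 37.3% of all probe sets were lower and 24.7% higher without overlap. Dgka was not called under spike-in scaling (-0.24, limma adjusted p = 0.69), nor was Itm2a without naive replicates 2 and 3, the arrays with high actin ratios (0.57, limma adjusted p = 0.124).

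Ephx1 and the bright set of Pdlim1 overlapped between IFNa/b and naive arrays, with differences of 0.76 ± 0.46 and -0.27 ± 0.21 (limma, adjusted p of 0.165 and 0.275). Ephx1 was called higher when naive replicate 1 was left out (1.36, limma adjusted p = 0.0105), and its sign turned to -0.42 with naive replicates 2 and 3 left out. Pdlim1 100554_at was called lower without naive replicate 2 (-0.51, limma adjusted p = 0.0248), while its sign turned to 0.35 with medians centred and it was called higher under spike-in scaling (1.58, limma adjusted p = 0.00546). The dim sets went their own way again. Capg 162461_at differed by -1.17 ± 0.41 on the log2 scale (limma adjusted p = 0.023), or 0.68 under spike-in scaling, where it was not called, while the bright Capg set rose. Pdlim1 161348_r_at differed by -1.25 ± 0.42 (limma adjusted p = 0.0187), or 0.60 under spike-in scaling, where it was not called, with signals of 284, 818 and 475 in IFNa/b cultures and 682, 2165 and 1200 in naive cells. Capg 161969_f_at was higher by 1.34 ± 0.58 (limma adjusted p = 0.0564), with all 3 IFNa/b arrays above the naive ones. The dim calls also rested on single arrays and on the scaling. Capg 162461_at was not called without naive replicate 2 (-1.08, limma adjusted p = 0.0619) or IFNa/b replicates 1 (-1.12, adjusted p = 0.0641) or 2 (-1.16, adjusted p = 0.0526), nor with quantile normalization (-0.53, adjusted p = 0.24). Pdlim1 161348_r_at was not called without naive replicate 2 (-0.85, limma adjusted p = 0.103) or IFNa/b replicate 1 (-0.91, adjusted p = 0.104), nor with medians centred (-0.63, adjusted p = 0.143). Capg 161969_f_at was called higher without IFNa/b replicate 2 (1.75, limma adjusted p = 0.0275), with quantile normalization (1.87, adjusted p = 0.0116) and with spike-ins (3.19, adjusted p = 9.12e-06).

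Genes listed as markers of other cells moved with stimulation, in calls that come from the signals as deposited. Which cells made the RNA of these genes was not tested, and it may include the CD8 T cells. Under spike-in scaling 1 myeloid, 1 erythroid or platelet and no other marker was called lower. The 11 CD8 T cell identity markers summed to 73934 to 92759 in IFNa/b cultures and 78104 to 139668 in naive cells, 3 falling and 1 rising (limma). The summed signal of 10 B cell markers (of 12 listed) was 955 to 1349 in the IFNa/b cultures and 2652 to 5600 in naive cells, and 5 of 6 tested fell. The sum of 18 myeloid and dendritic markers was 7710 to 9230 and 16997 to 21928, with 7 of 10 tested falling and 1 rising. For 3 erythroid and platelet markers the sum was 468 to 743 and 6210 to 14512, with 1 of 2 tested falling, and for 8 stromal and endothelial markers 2037 to 3517 and 4877 to 12691, with 3 of 3 tested falling. NK cell markers (5 on the array) summed to 1536 to 2769 and 6775 to 8204. Of 4 tested, Klrd1 (-3.02) and Klra3 (-2.07) fell and Klrk1 (2.23) rose. The 4 CD4 and gamma-delta T cell markers summed to 3369 to 7912 and 1373 to 2244. Of 2 tested, Cd4 fell (-1.62, or 0.24 under spike-in scaling) and Ctla4 rose (2.64), so the higher sum does not stand for higher Cd4. The part of these cells, and of the RNA quality of naive replicates 2 and 3, in the differences of the 5 genes from naive cells was not tested.

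Between IL-12 and Ag-B7 alone at 48 h, the summed myeloid and dendritic markers were 5734 to 7118 and 7143 to 9587, without overlap. Of 10 tested, 1 was called lower, Ctss, the lysosomal protease cathepsin S, by -1.45 ± 0.25 (limma adjusted p = 0.00968), and 4 were lower by any amount. No marker of the other lists was called in either direction. The sums were 907 to 1672 with IL-12 and 1000 to 1679 with Ag-B7 alone for B cells, 3499 to 8214 and 1250 to 7638 for NK cells, and 75997 to 96604 and 85370 to 107960 for CD8 T cell identity. They were 3262 to 7064 and 2398 to 4859 for CD4 and gamma-delta T cells, 523 to 773 and 411 to 693 for erythroid cells and platelets, and 2020 to 3382 and 2237 to 3371 for stromal and endothelial cells. As Capg is abundant in macrophages, the myeloid values stand beside its own. With IL-12 and Ag-B7 alone the myeloid sums were 6990 and 7944 at 24 h, where Capg read 1531 and 2343. At 72 h the sums were 9948 and 15403, where Capg read 5739 and 4174. With IFNa/b at 48 h the sum was 7710 to 9230, inside the Ag-B7 range, where Capg was lower without overlap. The part of these cells in the IL-12 difference was not tested.

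The 5 genes differed in how their levels ranked over the 11 groups, ordered by mean log2 signal. Dgka ran from Ag-B7 alone at 72 h (13864) and naive cells (mean 12776, SD 4587) through IFNa/b and IL-12 at 72 h (6374 and 5496), Ag-B7 alone at 48 h (4448, SD 615), TSA (3821) and IFNa/b at 48 h (2842, SD 328). It ended with Ag-B7 alone at 24 h (2296), IL-12 at 48 h (2010, SD 146), IFNa/b at 24 h (1892) and IL-12 at 24 h (1304). The Ag-B7 array at 72 h lay inside the naive range and the TSA array inside the 48 h Ag-B7 range, so these neighbours did not differ beyond their spread. Single arrays next to each other have no spread to judge by.

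Itm2a was highest with Ag-B7 alone at 48 h (mean 4300, SD 479) and at 24 h (3804, inside the 48 h range), and lowest in naive cells (1031, SD 413). TSA at 72 h (3162), IFNa/b at 72 h (2847) and 24 h (2842), Ag-B7 alone at 72 h (2612), IL-12 at 24 h (2209) and IFNa/b at 48 h (2172, SD 538) filled the middle. IL-12 at 48 h (1725, SD 281) and 72 h (1689) were the lowest stimulated groups, the single array lying inside the range of the 3, and the 48 h IL-12 range overlapped that of IFNa/b. Ephx1 was highest with Ag-B7 alone at 72 h (1407) and 48 h (1409, SD 234), the single array lying inside the range of the 4. They were followed by IFNa/b at 72 h (941), TSA (883), IFNa/b at 48 h (757, SD 409) and naive cells (479, SD 408). IL-12 at 48 h (313, SD 160) and 72 h (230) came next, and the 24 h arrays were lowest, at 131 with Ag-B7 alone, 72.9 with IL-12 and 58.4 with IFNa/b. The ranges of IFNa/b at 48 h, naive cells and IL-12 at 48 h overlapped in that order.

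Capg 160106_at was highest at 72 h with IL-12 (5739), IFNa/b (4627) and Ag-B7 alone (4174, inside the 48 h Ag-B7 range). Ag-B7 alone at 48 h (mean 4030, SD 202), TSA (2391), IFNa/b at 48 h (2377, SD 408) and Ag-B7 alone at 24 h (2343) followed, the TSA array and the 24 h array both lying inside the range of IFNa/b at 48 h. IL-12 at 48 h (1927, SD 283), IFNa/b at 24 h (1657), IL-12 at 24 h (1531) and naive cells (517, SD 52.5) were lowest, and no stimulated array reached down to the naive ones. Pdlim1 100554_at was highest with Ag-B7 alone at 72 h (4395). Ag-B7 alone at 48 h (3491, SD 44.2), IFNa/b at 72 h (3468), TSA (3429), naive cells (3455, SD 969), IFNa/b at 24 h (3292), Ag-B7 alone at 24 h (3226) and IFNa/b at 48 h (2790, SD 321) all lay inside the naive range of 2403 to 4311. The 3 lowest groups were IL-12 at 24 h (2583, also inside the naive range), 72 h (1862) and 48 h (1679, SD 244), and the 48 h and 72 h IL-12 arrays were below every array of the other groups.

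None of the measured relatives of the 5 genes was called between IL-12 and Ag-B7 alone (limma). Lists of such genes were drawn up with earlier results of these data known, 1 for each gene, and counts below leave out the 5 themselves. At 48 h, where 0.665% of all probe sets were called between IL-12 and Ag-B7 alone, the lists had 0 calls in either direction (limma with Benjamini-Hochberg adjustment) among 11 diacylglycerol signalling genes, 2 Itm2 relatives, 15 epoxide hydrolysis and conjugation genes, 17 actin capping and severing genes and 12 PDZ-LIM and alpha-actinin genes. At an unadjusted p below 0.05 they had 0, 0, 1, 0 and 1. At 24 and 72 h the lists had 0 calls as well (limma, same adjustment), among 12, 2, 14, 18 and 12 genes, and 2, 0, 3, 2 and 1 at an unadjusted p below 0.05. Their median differences at 48 h lay between -0.15 (PDZ-LIM and alpha-actinin) and 0.06 (epoxide hydrolysis), against -0.002 over all probe sets.

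The relative that differed most at 48 h in the diacylglycerol list was Rasgrp1, a Ras activator that binds diacylglycerol, at -0.50 ± 0.35 (limma adjusted p = 0.998). At 24 and 72 h it was Rasgrp2, a Rap activator, at -0.78 ± 0.25 (limma adjusted p = 0.496). Itm2b and Itm2c, the other two family members, were at -0.05 ± 0.22 and -0.04 ± 0.24 at 48 h (limma adjusted p = 0.998 each), against -1.30 for Itm2a. In the list around Ephx1 the largest difference at 48 h was that of Hmox1, haem oxygenase, at 0.85 ± 0.41 (limma adjusted p = 0.938), and at 24 and 72 h that of the glutathione transferase Mgst2, at -0.88 ± 0.42 (limma adjusted p = 0.572). Around Capg these were the actin severing protein gene Dstn at 0.50 ± 0.35 (limma adjusted p = 0.998) and the profilin gene Pfn2 at 0.83 ± 0.59 (limma adjusted p = 0.69). Actn1, an alpha-actinin gene and so a gene for a binding partner of Pdlim1, had the largest difference of its list at both, with -0.67 ± 0.25 at 48 h (limma adjusted p = 0.57) and -0.94 ± 0.25 at 24 and 72 h (limma adjusted p = 0.462).

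With IFNa/b against naive cells many list genes were called, as were 57.9% of all probe sets. Under spike-in scaling, which moved the median of all probe sets to 1.52, no gene of these lists was called lower. Of 11 diacylglycerol signalling genes, 3 rose and 5 fell, or 6 and 0 under spike-in scaling, with a median difference of -0.61 (0.01 with medians centred and 1.25 with spike-ins) against -0.33 over all probe sets. Rasgrp2 (-2.42), the protein kinase C gene Prkcb (-1.43) and Rasgrp1 (-1.24 on the log2 scale) fell, Prkcb and Rasgrp1 turning to 0.42 and 0.61 under spike-in scaling, and the protein kinase C gene Prkca (1.23) rose (limma adjusted p of 1.15e-05, 1.94e-05, 0.00969 and 0.00164). Dgka fell as well, by 2.09, and several of these genes encode proteins that bind the lipid it removes. Itm2b (-1.52) and Itm2c (-1.26) fell (limma adjusted p of 5.57e-05 and 6e-04), at 0.34 and 0.59 under spike-in scaling and not called there, while Itm2a rose by 1.09.

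Around Ephx1, 4 of 15 genes rose and 5 fell, or 10 and 0 under spike-in scaling, with a median of -0.53 (0.03 with quantiles matched, 0.09 with medians centred and 1.33 with spike-ins). The glutathione transferase gene Gstt1 rose by 2.22, while Mgst2 (-2.24), Gstm5 (-2.05) and Gstm2 (-2.04) fell (limma adjusted p of 0.000517, 0.00054, 0.000191 and 0.000225), and the probe sets of Gstm genes may not tell family members apart. Of 17 actin genes, 2 rose and 7 fell, or 14 and 0 under spike-in scaling, with a median of -0.40 (0.22 with medians centred and 1.45 with spike-ins). Dstn rose by 2.44, whereas Gsn (-2.24), Scin (-1.60) and Svil (-1.19) of the gelsolin family fell (limma adjusted p of 5.44e-05, 0.000172, 0.0192 and 0.000553). These 3 went opposite to Capg at 2.09, with Scin and Svil turning to 0.25 and 0.66 under spike-in scaling. Of 12 PDZ-LIM and alpha-actinin genes, 1 rose and 6 fell, or 5 and 0 under spike-in scaling, with a median of -0.92 (0.93 under spike-in scaling). Fhl1 (-2.34), Limk1 (-1.80), Pdlim7 (-1.65) and Actn1 (-1.37) fell, Limk1, Pdlim7 and Actn1 turning to 0.05, 0.21 and 0.48 under spike-in scaling (limma adjusted p of 0.000536, 0.000238, 0.000192 and 0.000528), while Pdlim1 at -0.27 was not called.

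Across the 17 stimulated arrays the 5 genes followed each other to different degrees, which is given as a description because the arrays share times and treatments. Pearson's r of log2 signals was highest between Dgka and Capg (0.83) and between Itm2a and Pdlim1 (0.79), and lowest between Dgka and Itm2a (0.31). Among 6278 genes, those most like Dgka were Sidt2 (0.94), Ripor2 (0.93) and Acss1 (0.93). Those most like Itm2a were Synpo (0.80), Pdlim1 (0.79) and Nsmce1 (0.79). For Ephx1 they were Tspan32 (0.84), Litaf (0.83) and Ift46 (0.83), and for Capg they were Trpv2 (0.88), Vps41 (0.88) and Pias3 (0.87). Pdlim1 was most like Rgs10 (0.86), Ctss (0.81) and Cd8a (0.80). Over all 20 arrays, naive ones included, r was 0.03 between Capg and Vps41 and 0.96 between Dgka and Ripor2.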

How the data were processed

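RNA of 20 samples was measured on 1-colour Affymetrix arrays, per the labels. Each deposited value is an intensity, the MAS5 signal of a probe set on an array, per the submitters' processing notes. The MAS5 version was not given in the sources used here, nor was the scaling target. Their mean without the top and bottom 2% was 1000.46 to 1000.74 on every array, and the median was 232 to 507. Gene names came from the array's platform annotation, and 66 control probe sets were left out.

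Signals were taken as log2(signal + 46.4), the pseudocount being the median of the arrays' 20th percentiles. Probe sets above the array's 40th percentile on 3 of 13 arrays (replicated groups, 8569 probe sets) or 2 of 7 arrays (24 and 72 h, 8143 probe sets) were fitted in limma 3.58.1 (R 4.3.3) with moderated variances following the mean, two-sided tests and Benjamini-Hochberg adjustment over all of them. The fits had 9 and 2 residual degrees of freedom, and the second had time as a block. The script was tested on simulated data. Array number limits the precision.

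The genes, lists and markers were chosen with earlier results of these data known. Named genes were every probe set of the 5 genes, the 3 genes most like each over the stimulated arrays, and from each list up to 4 called genes with the largest differences, or the single largest where none was called. The 5 genes were tested only in contrasts whose differences use no array that chose them. The fit of the 13 replicated arrays took its spread from those arrays too. For other genes and lists the limma tests of IL-12 against Ag-B7 at 48 h are given as well.

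Same-numbered IL-12 and Ag-B7 replicates at 48 h deviated together (correlations of 0.272, 0.267 and 0.283 over probe sets), so the numbers may pair them. IFNa/b and naive replicates did not all do so (0.131, 0.219 and 0.0475) and share only a number. IFNa/b replicates 1, 2 and 3 deviated with Ag-B7 replicates 2, 3 and 4 (0.281, 0.276 and 0.451). With Ag-B7 replicates of the same number they had 0.106, -0.034 and -0.092. The replicate block went by number, so it would not match IFNa/b and Ag-B7 arrays paired in that other way. Alternatives were quantile normalization, median centring, spike-in scaling, other pseudocounts and filters, 1 probe set per gene, no variance trend, a replicate block, fewer or more arrays in the fit, and leaving out arrays. Upstream sequences came from RefSeq (GRCm38.p6). Protein sequences were not used here.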

Additional observations from a re-analysis of the deposited data

Results flagged for a closer look

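In 4 comparisons over time, the single arrays at 24 or 72 h lay on the other side of Ag-B7 alone from all 48 h arrays. Although 32 were examined, only those whose 48 h arrays did not overlap with Ag-B7 alone could be flagged. These were the brightest probe sets with IL-12 and, except for Ephx1, with IFNa/b. Each of the 4 is a difference between 1 array and 1 array, and the change between times was not tested. Capg 160106_at was higher with IL-12 at 72 h by 0.45 on the log2 scale, with 5739 on the IL-12 array and 4174 with Ag-B7 alone, whereas at 48 h its 3 IL-12 arrays were below all 4 Ag-B7 arrays. The same probe set was higher with IFNa/b at 72 h by 0.15, with 4627 on the IFNa/b array against the same Ag-B7 array. Itm2a was higher with IFNa/b at 72 h by 0.12, with 2847 against 2612, and lower on all 3 IFNa/b arrays at 48 h. Pdlim1 100554_at was higher with IFNa/b at 24 h by 0.029, with 3292 against 3226, a difference close to 0, and lower on all 3 IFNa/b arrays at 48 h. In none of the 8 probe sets did 1 of the 4 Ag-B7 arrays at 48 h stand apart from the other 3 by Dixon's criterion.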

How the results depend on the processing

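Of 591 recomputed results of the 8 probe sets, 525 stayed on their side of the threshold or, where untested, within 1 SD, with 12 calls lost, 12 gained, 39 untested differences from naive cells moved by over 1 SD and 3 reversed. The 3 reversals involve a call, and turns of uncalled differences from naive cells are given beside those differences. They came with spike-in scaling of IFNa/b against naive cells, to 0.68 for Capg 162461_at, 1.58 for Pdlim1 100554_at and 0.60 for Pdlim1 161348_r_at. At 24 and 72 h no probe set of the 5 genes was called under any alternative run. For IL-12 against Ag-B7 there, 2 probe sets were called as reported, 1 with quantile normalization, 1 with a pseudocount of 200, 1 without a filter, 1 with the brightest probe set per gene, 0 without a variance trend (656 at an unadjusted p below 0.05) and 86 with spike-in scaling (76 higher, 10 lower). For IFNa/b against Ag-B7 the 4 calls became 36 with spike-in scaling, and for IL-12 against IFNa/b the 22 became 76 with spike-in scaling (27 higher, 49 lower), 10 without a filter and 7 without a trend. For IL-12 against Ag-B7 at 48 h the 57 calls became 36 with median centring, 16 with spike-in scaling and 23 to 47 when 1 replicate was left out (lowest without IL-12 replicate 1). With a replicate block for the numbers that may pair the arrays, 58 were called, 43 of them shared. The 4961 calls of IFNa/b against naive cells ranged from 4090 to 5050 with 1 replicate left out and were 5105 with a replicate block and 2730 without naive replicates 2 and 3 together, an alternative added after seeing the data. They split into 1977 higher and 2984 lower as deposited, 2360 and 2162 with quantile normalization, 3075 and 1326 with median centring, and 5308 and 91 with spike-in scaling. The cause of these changes was not tested. Signal close to background limits Ephx1 and both dim Capg sets.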
